A study of Mus musculus with 8 samples.

Results

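The comparison described here sets 4 arrays of gonadal white adipose tissue against the other 4 arrays of the same study, which together make up all 8 samples. The first-listed set holds controls 1 and 2 and knockouts 6 and 8, and the last-listed set holds controls 3 and 4 and knockouts 9 and 10, the numbers being those on the sample titles. The sets were chosen by array values: the lower quartile of each array has its largest gap between them, and they happen to be the first and last 4 samples in the order of listing. The study itself compared genotypes on a Swiss background at the age or time point labelled 10 weeks. Controls were labelled wild type. Knockouts carried the deletion labelled aP2-Pex5 -/- and were described as having no working peroxisomes in fat. The aP2 (Fabp4) promoter is active in adipocytes and also in macrophages, and whether different arrays stand for different animals is not stated in the labels. Each set holds 2 controls and 2 knockouts, and genotype was kept in every fit. Because array values chose the sets, the differences between them are descriptions and carry no p-value.

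White adipose tissue follows the feeding and daily cycles of the animal. After a meal insulin raises the genes of fatty acid and cholesterol synthesis through the factors SREBP and ChREBP, and during fasting these genes go down while FOXO targets go up. The core clock is a loop in which BMAL1 (Arntl) with CLOCK or NPAS2 drives the Per, Cry and Nr1d1 genes, whose products repress BMAL1 activity or the Arntl gene, so that Arntl and the Per genes peak at opposite times of day. Fat also holds macrophages, lymphocytes, vessels, fibroblasts and a mesothelial cover, whose share of the tissue varies with the piece taken.

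All values below are log2 values, the scale of the deposited table. Differences are the mean of the last-listed set minus the mean of the first-listed set. Values of single arrays are given in the order control 1, control 2, knockout 6, knockout 8 for the first-listed set and control 3, control 4, knockout 9, knockout 10 for the last-listed set. One probe set, that with the highest mean, stood for each of 18193 genes.

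The lower quartile lay between 4.77 and 4.79 on the first-listed arrays and between 4.83 and 4.85 on the last-listed arrays, with control 2 and control 3 on either side of the gap of 0.0357. The next widest gap between neighbouring arrays was 0.0173. The upper quartile ran the other way, from 8.50 to 8.52 against 8.45 to 8.47, so the spread of values within an array was narrower in the last-listed set. Array medians overlapped, at 6.46 to 6.52 and 6.44 to 6.51. The dim hybridisation spikes, bacterial transcripts added to the labelled sample, were also lower in the last-listed set. BioB read 8.97 to 9.11 against 8.66 to 8.88 and BioC read 10.56 to 10.70 against 10.33 to 10.46, without overlap, while the brighter BioD and Cre spikes overlapped. Spikes added before labelling overlapped too, with lys at 8.46 to 9.48 and 8.05 to 8.53. Their means were lower in the last-listed set, by -0.56 for lys, -0.52 for phe, -0.61 for thr and -0.29 for dap. BioB and BioC differed by -0.29 and -0.24. Knockout 8 was the highest array for each spike added before labelling. The labels state no labelling batch, feeding state or time of day for any array, so the order of listing cannot be read as any of them, and the part of these array measures in the gene differences below was not tested. The 3' minus 5' difference of the Pcx control probe sets, a sign of shortened or incompletely copied RNA, was 3.97 on control 1, 4.83 on control 4 and 4.65 on knockout 9, and 1.59 to 2.10 on the other 5 arrays. Control 1 is in the first-listed set, and control 4 and knockout 9 are in the last-listed set. The mean of this measure was higher by 0.93 in the last-listed set, with overlapping sets.

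**Figure D1:**
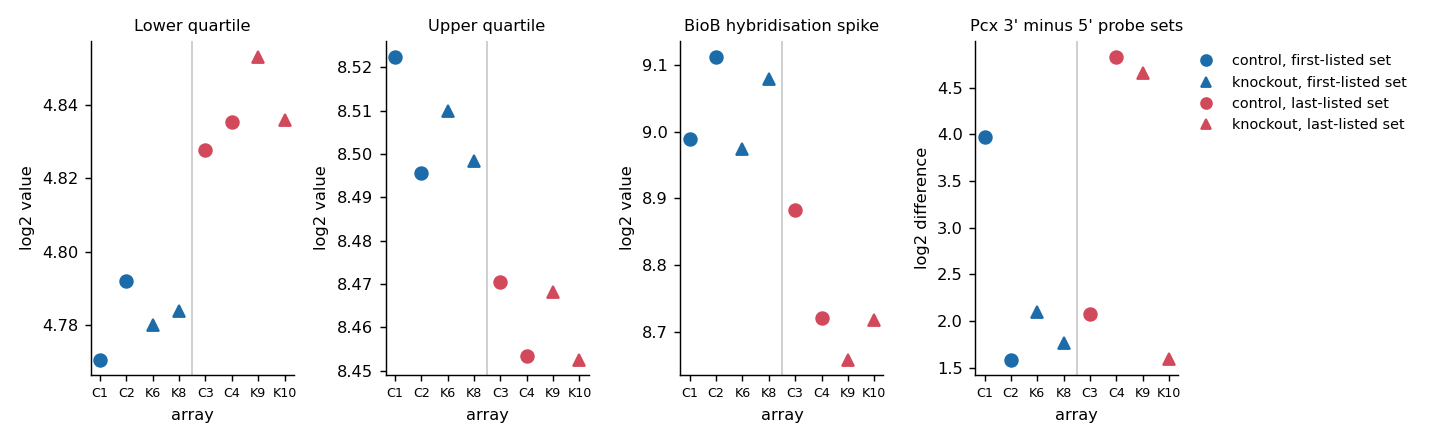
Each panel shows 1 measure on the 8 arrays (C, control; K, knockout), as log2 values or, on the right, a log2 difference; axes do not start at 0, circles are controls, triangles knockouts, and colour marks the set. The lower quartile, the upper quartile and the BioB spike separate the sets, and the Pcx measure is high on control 1, control 4 and knockout 9.

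Differences between the sets were widespread and small. In 1610 genes all last-listed arrays lay above all first-listed arrays (8.85% of the genes), and in 1015 genes they lay below (5.58%). At a difference of at least 2-fold without overlap there were 19 higher genes (0.104%) and 32 lower genes (0.176%). Since the same values chose the sets, nothing is read from these shares, and they serve as the background for the gene groups below. The 2-fold line ran between Gnmt and Slc1a1, both at -1.01, and Slc25a10 and Alcam, at -0.996 and -0.99. Another 123 genes differed by 2-fold or more with overlapping sets. Without control 1, control 4 and knockout 9 the counts at 2-fold were 44 higher and 25 lower. Leaving out control 1 or knockout 10 alone gave 34 and 53 higher genes, and leaving out control 1, control 2, knockout 8 or control 3 alone gave 21, 83, 77 and 83 lower genes.

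The direction of the differences followed the level of the gene. The lower quartile of the arrays chose the sets, so higher dim genes in the last-listed set follow in part from that choice and are no separate result. Among the 4549 dimmest genes, with means from 2.88 to 5.48, the median difference was 0.08, and 459 lay above against 39 below. Among the 4548 brightest, with means from 9.26 to 14.77, the median was -0.03, and 321 lay above against 500 below. Over all genes the median was 0.02, and 9926 of 18193 genes had a difference above 0. The difference was computed separately in each genotype, from controls 3 and 4 minus controls 1 and 2 and from knockouts 9 and 10 minus knockouts 6 and 8. These estimates share no array, and across genes they had a Pearson r of 0.544 and a Spearman rho of 0.563, with the same sign in 71.3% of genes. Genes are not independent replicates and the sets were chosen on all 8 arrays, so this is a description. The spread of the difference over genes was wider in controls (SD 0.35) than in knockouts (SD 0.278).

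**Figure D2:**
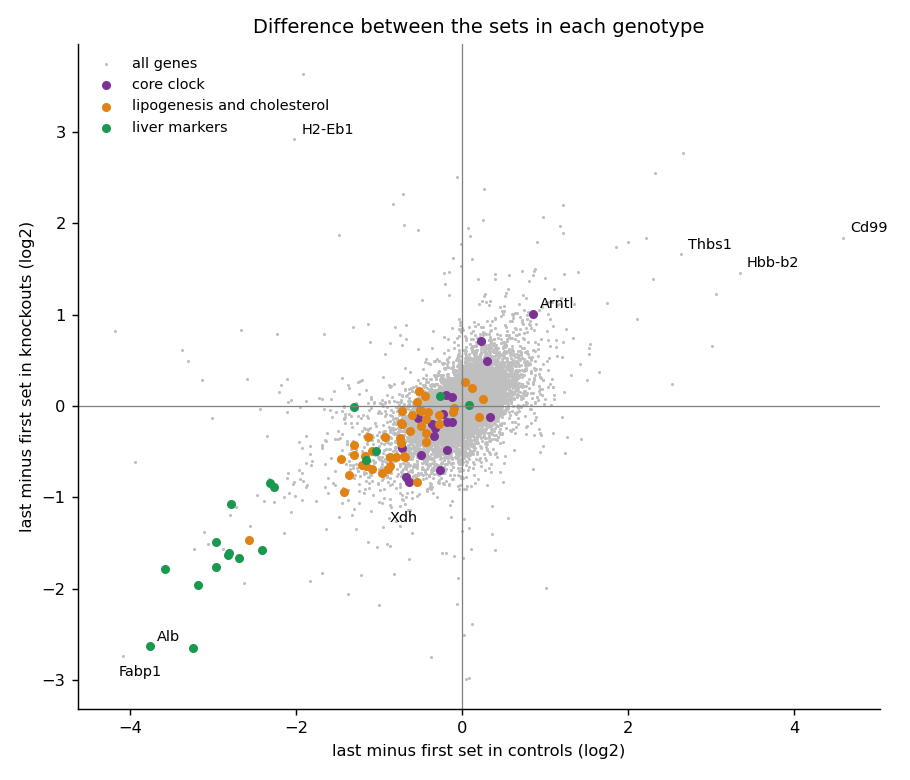
Each point is a gene, placed by its difference between the sets in controls (horizontal, log2) and in knockouts (vertical, log2); core clock, lipid synthesis and liver genes are coloured. Liver genes and most lipid synthesis genes lie low in both genotypes, Arntl, Cd99 and Thbs1 lie high in both, and H2-Eb1 lies on opposite sides.

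Clock genes differed in both directions. Arntl and Npas2, the positive partners of the loop, were higher in the last-listed set, while Per2, Per3 and Cry1, which encode repressors, were lower. Arntl read 7.55, 7.44, 7.30 and 7.37 on the first-listed arrays and 8.26, 8.44, 8.73 and 7.95 on the last-listed arrays. The sets did not overlap, and the difference was 0.93 (1.91-fold; set means 7.42 ± 0.11 and 8.35 ± 0.33, SD, n = 4 each). It was 0.86 in controls and 1.01 in knockouts. Npas2, an alternative partner of BMAL1, read 6.04, 6.22, 6.12 and 5.90 against 6.28, 6.58, 6.57 and 6.42, a difference of 0.39. Clock itself overlapped, with a difference of -0.01.

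Of the genes of the Per and Cry repressors, Per2, Per3 and Cry1 were lower on every last-listed array, and Per1 and Cry2 overlapped. Per2 read 8.65, 8.43, 8.97 and 8.84 on the first-listed arrays and 7.86, 7.94, 8.07 and 8.08 on the last-listed arrays, a difference of -0.74 (1.67-fold lower; 8.72 ± 0.24 and 7.99 ± 0.10, SD, n = 4 each). Its size was -0.64 in controls and -0.83 in knockouts, and its 3 probe sets ran from -0.74 to -0.66. Per3 read 9.89, 9.58, 9.68 and 9.64 against 9.21, 8.84, 9.06 and 9.35, a difference of -0.59. Cry1 read 7.50, 7.55, 7.69 and 7.70 against 7.20, 7.50, 7.25 and 7.17, and its sets touched, since control 1 and control 4 both rounded to 7.50. Per1 differed by -0.49 and Cry2 by -0.03, and 1 of the 6 probe sets of Per3 had the other sign, at 0.21.

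The nuclear receptors of the loop lay in opposite directions. Nr1d1, which encodes the Arntl repressor REV-ERBα, read 9.34, 9.09, 9.01 and 8.89 on the first-listed arrays and 9.54, 9.34, 9.46 and 9.86 on the last-listed arrays, a difference of 0.47. Control 1 and control 4 read the same to 2 decimals. Nr1d2, of the same family, went the other way with overlapping sets, by -0.18 in controls and in knockouts. Rora, an activator of Arntl, was lower by -0.28 without overlap, and 8 of its 9 probe sets had that sign. Of the clock output factors, Tef read 10.89, 10.56, 10.69 and 10.81 against 10.49, 10.31, 10.49 and 10.53, a difference of -0.28. Dbp, another factor of the same family, overlapped: it read 11.06, 10.91, 10.81 and 10.75 against 11.05, 9.56, 9.56 and 10.46, so control 3 was as high as control 1. Usp2 and Hlf, chosen like Per1, Cry2, Clock, Nr1d2 and Dbp after their values were seen, differed by -0.52 and -0.33 with overlap. Of 13 measured genes of the negative arm and output, 11 were lower and 2 higher, with 4 lying wholly below and 1 wholly above (median -0.33). The other clock list holds the positive factors together with Cry1 and Nfil3, which encode repressors. Of its 6 measured genes Arntl and Npas2 lay wholly above and Rora and Cry1 wholly below (median -0.09). The median of the negative arm and output was -0.21 without control 1 and -0.15 without control 1, control 4 and knockout 9.

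**Figure D3:**
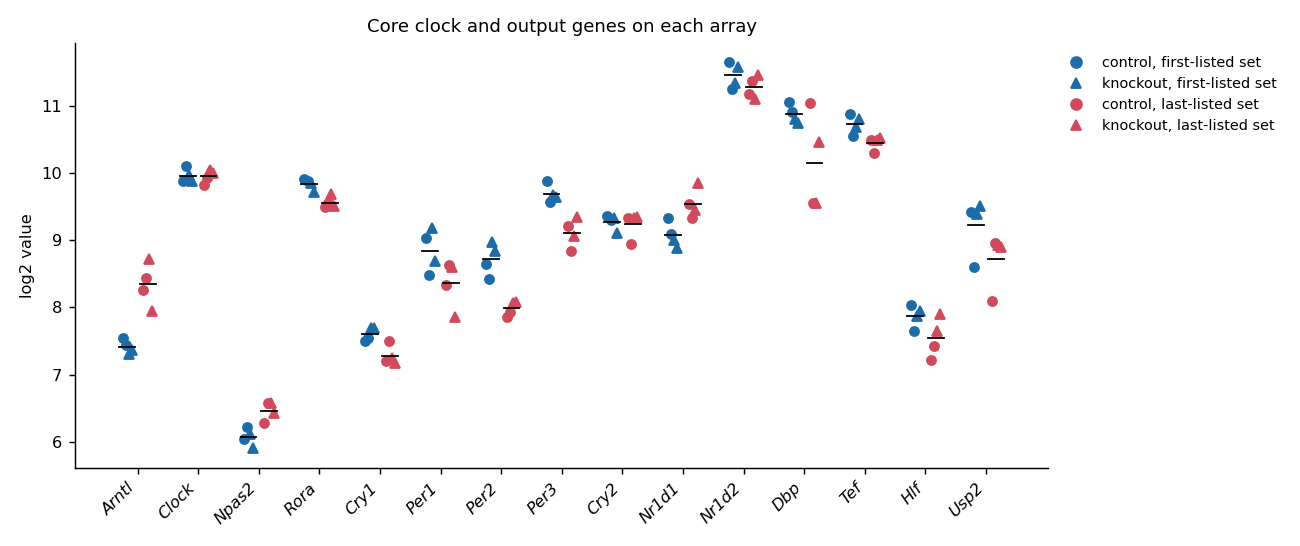
Log2 values of 15 clock and output genes on each array, with the first-listed set left and the last-listed set right of each gene and the mean of 4 arrays as a bar; circles are controls and triangles knockouts, and the axis does not start at 0. Arntl, Npas2 and Nr1d1 sit higher and Per2, Per3, Rora and Tef lower on all 4 last-listed arrays.

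The DNA element through which BMAL1 acts is the E-box, and every clock promoter found to hold it is shown, whatever the direction of its gene. The letters CACGTG, which read the same on both strands, were searched in the 250 bases before each start site in RefSeq on GRCm38.p6. They were found in 6 of 22 promoters of 17 clock genes (27.3%) and in 1978 of 32851 promoters of all genes (6.02%). Promoters of cholesterol synthesis genes held them in 3 of 18 (16.7%). A match is a description of letters, not of binding. Capitals mark the E-box, and each sequence is given on the strand of its gene with 30 bases on either side.
Cry1 promoter, chr10:85185079-85185144, minus strand: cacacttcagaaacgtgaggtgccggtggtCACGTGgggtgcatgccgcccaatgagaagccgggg
Tef promoter, chr15:81802516-81802581, plus strand: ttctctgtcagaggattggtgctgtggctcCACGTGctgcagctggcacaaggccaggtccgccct
Tef second promoter, chr15:81811246-81811311, plus strand: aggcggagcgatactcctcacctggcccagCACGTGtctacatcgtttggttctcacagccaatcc
Ciart promoter, chr3:95882237-95882374, minus strand: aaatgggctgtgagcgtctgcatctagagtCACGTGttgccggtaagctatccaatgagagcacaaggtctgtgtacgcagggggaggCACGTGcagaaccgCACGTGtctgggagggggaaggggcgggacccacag
Per1 promoter, chr11:69098753-69098818, plus strand: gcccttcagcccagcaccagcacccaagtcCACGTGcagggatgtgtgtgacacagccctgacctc
Bhlhe41 promoter, chr6:145865538-145865603, minus strand: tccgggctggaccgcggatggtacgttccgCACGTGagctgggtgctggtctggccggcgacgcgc
Cry1, Tef and Ciart, whose product represses BMAL1 activity, were lower on all last-listed arrays, Ciart by -0.15 with 3 E-boxes in its window. Per1 and Bhlhe41, which encodes a repressor, had 1 E-box each and overlapping sets, with differences of -0.49 and 0.10. Arntl, Nr1d1 and Per3 had no CACGTG in these windows, which says only that the letters are not there. With both strands searched, the D-box TTATGNAA was in 2 of the 22 clock promoters (9.09%, against 3.07% of all). The letters AGGTCA bound by ROR and REV-ERB receptors were in 4 (18.2%, against 14% of all). In the 18 cholesterol synthesis promoters the D-box was absent and AGGTCA was in 4 (22.2%).

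Genes of fat synthesis were lower in the last-listed set. Of 27 measured genes of lipogenesis and the response to feeding, 24 were lower and 3 higher; 6 lay wholly below the first-listed set and none wholly above, and the median was -0.62. Fasn, fatty acid synthase, read 14.11, 14.08, 13.62 and 13.51 on the first-listed arrays and 13.48, 12.79, 13.22 and 12.45 on the last-listed arrays, a difference of -0.85 (1.80-fold lower; 13.83 ± 0.31 and 12.98 ± 0.46, SD, n = 4 each). The gap between knockout 8 and control 3 was 0.03. Agpat2, which makes phosphatidic acid for triglyceride, read 13.65, 13.70, 13.19 and 13.17 against 12.85, 11.59, 12.89 and 12.30, a difference of -1.02. Control 4 was the lowest array for it.

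The feeding genes also carried a genotype pattern inside the first-listed set. Slc25a1, the mitochondrial citrate carrier, read 12.53 and 12.72 on controls 1 and 2, 12.07 and 12.02 on knockouts 6 and 8, and 11.89, 11.19, 11.51 and 11.21 on the last-listed arrays (difference -0.89). Tkt, transketolase of the pentose phosphate pathway, read 13.92 and 13.96, then 13.50 and 13.55, then 13.41, 13.10, 13.04 and 12.89 (difference -0.62). Controls of the first-listed set were highest in both. As a list, the mean of the members after subtraction of each member's mean over 8 arrays (the list score) was 0.56, 0.43, 0.12 and 0.08 on the first-listed arrays and 0.06, -0.60, -0.11 and -0.55 on the last-listed arrays. Control 4 and knockout 10 were lowest, and control 3 came close to knockout 8. Among list members outside the naming rule, picked after their values were seen, Acaca (acetyl-CoA carboxylase) differed by -0.92, Acly (ATP citrate lyase) by -0.71, Elovl6 by -1.06 and Gys2, a glycogen synthase, by -2.02, all with overlapping sets.

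Cholesterol synthesis followed the same direction with 18 of 19 measured genes lower, 6 of them wholly below and none wholly above (median -0.39, and -0.24 without control 4 and -0.59 without knockout 9). Fdps, which makes farnesyl diphosphate, read 10.73, 10.65, 10.02 and 9.90 against 9.87, 8.92, 9.84 and 9.23, a difference of -0.86; its second probe set differed by 0.02. Lss, lanosterol synthase, lay between 8.69 and 9.07 against 7.84 to 8.37, a difference of -0.79. Tm7sf2 and Pmvk, enzymes of the same pathway, differed by -0.86 and -0.79 without overlap. The list differed more in controls, with a median of -0.72, than in knockouts, with -0.20. Knockout 9 scored 0.08 and control 3 -0.05, inside or next to the range of the first-listed set of 0.03 to 0.40, so the list score overlapped. The letters TCACNCCAC of the sterol regulatory element were in 1 of 18 promoters of the measured cholesterol genes with an entry (5.56%; 1.05% of all, both strands).
Hmgcs1 promoter, chr13:119690184-119690252, plus strand, the element in capitals: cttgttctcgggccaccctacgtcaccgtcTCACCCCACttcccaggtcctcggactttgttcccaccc
Hmgcs1, shown as the only cholesterol gene with this element in its window, differed by -0.18 with overlapping sets.

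Fasting genes were mixed in direction. Of 27 measured genes of fasting and FOXO activity, 15 were higher and 12 lower, with 2 wholly above, 1 wholly below and a median of 0.01. Txnip, a thioredoxin-binding protein that limits glucose uptake, read 12.43, 11.93, 12.21 and 12.56 against 12.58, 13.17, 12.56 and 13.24, a difference of 0.61 with knockouts 8 and 9 both at 12.56. Sesn1, a FOXO and p53 target, differed by 0.32 without overlap. Cpt1a, which carries fatty acids into mitochondria, was lower by -0.33 without overlap. The fasting genes Pdk4 and Angptl4, named after their values were seen, differed by 0.21 and 0.22 with overlap. Of 23 measured glucocorticoid-induced genes 12 were higher and 11 lower (median 0.03), and Hif3a alone lay wholly above, at 7.71, 7.64, 7.84 and 7.98 against 8.18, 8.49, 8.34 and 8.23.

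**Figure D4:**
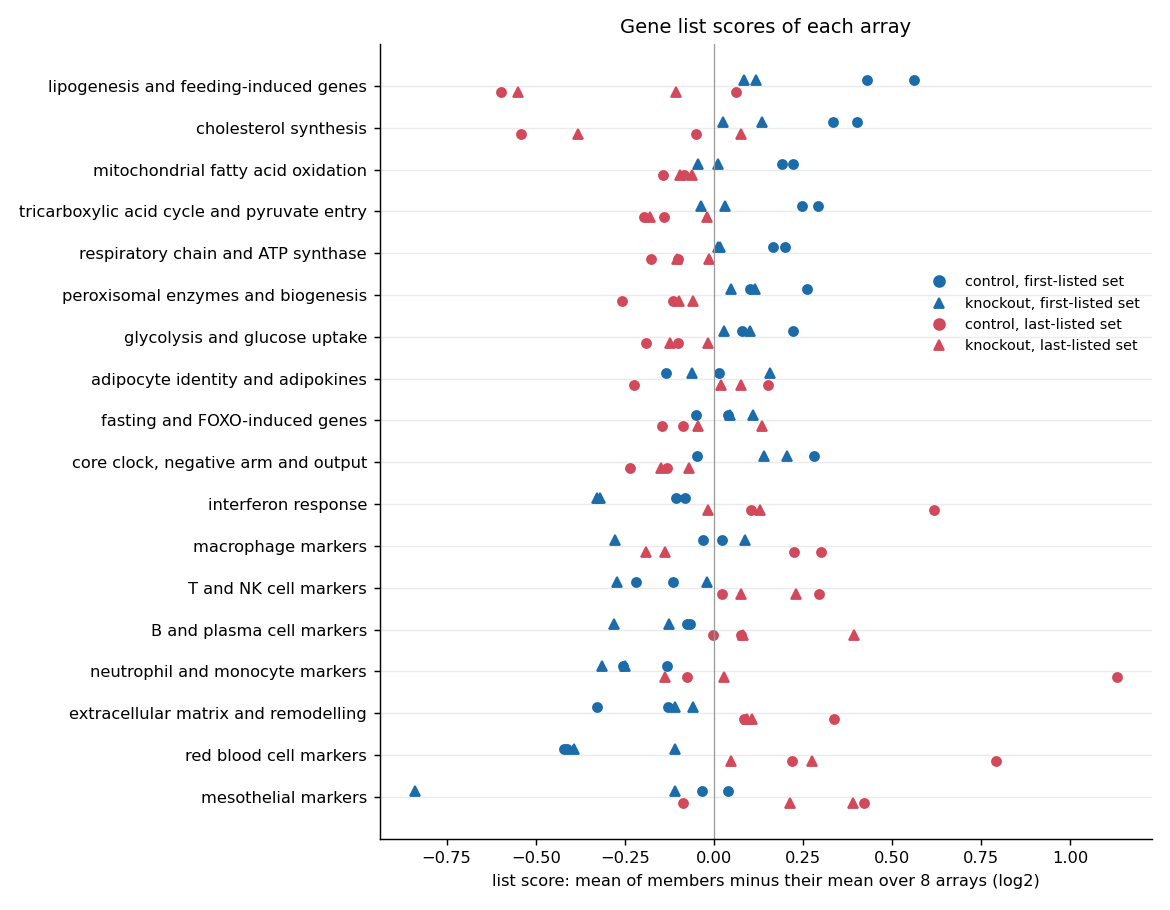
Scores of 18 gene lists (the mean over members of each member's value minus its own mean on 8 arrays, log2) on each array; circles are controls, triangles knockouts and colour marks the set. Lipid, mitochondrial, peroxisomal and glycolytic lists lie mostly to the left and interferon, lymphocyte, matrix and red blood cell lists to the right in the last-listed set, with control 4 far right for neutrophil genes.

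Mitochondrial genes were lower by small amounts over whole lists. All 46 measured subunits of the respiratory chain and ATP synthase were lower, 20 of them wholly below the first-listed set, with differences from -0.39 to -0.02 (median -0.20). The 4548 brightest genes of the array, for comparison, had a median of -0.03. Ndufs1, the largest subunit of complex I, read 11.49, 11.31, 11.01 and 10.99 against 10.90, 10.67, 10.97 and 10.69, a difference of -0.39 with a gap of 0.02 between knockouts 8 and 9. Uqcrq of complex III, Ndufa8 of complex I and Atp5o of ATP synthase differed by -0.38, -0.35 and -0.34, though 2 of the 4 probe sets of Uqcrq had the other sign, up to 0.08. The list differed by a median of -0.31 in controls and -0.05 in knockouts. Its scores were 0.20, 0.17, 0.01 and 0.02 against -0.18, -0.10, -0.01 and -0.10, so controls 1 and 2 stood above the other 6 arrays.

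The tricarboxylic acid cycle and pyruvate entry showed 22 of 23 measured genes lower, 6 wholly below (median -0.22; -0.41 in controls and -0.08 in knockouts), and the list scores overlapped. Dlat, a subunit of the pyruvate dehydrogenase complex that feeds carbon into the cycle, read 10.97, 11.16, 10.76 and 10.59 against 10.38, 10.01, 10.43 and 10.08, a difference of -0.65. Idh3b, Fh1 and Mdh2, enzymes of the cycle, differed by -0.36, -0.26 and -0.26 without overlap. Of 19 genes of mitochondrial fatty acid oxidation, 18 were lower and 7 wholly below (median -0.17; -0.31 in controls and -0.07 in knockouts), with Acads, Eci1, Acadvl and Etfb between -0.35 and -0.28. In all of these lists controls 1 and 2 were the highest arrays.

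Peroxisomal genes, the organelle that the knockout targets, were lower in 32 of 36 measured members. The median was -0.19, with -0.28 in controls and -0.08 in knockouts. Of the 36 members 3 lay wholly below, a share near the 5.58% of all genes, and 1 lay wholly above. Acot4, a peroxisomal acyl-CoA thioesterase, lay between 6.80 and 7.67 against 6.40 to 6.60, a difference of -0.70, and was highest on control 1. Abcd3, a fatty acid transporter of the peroxisomal membrane, and Pex2, a ubiquitin ligase of peroxisome import, differed by -0.27 and -0.13 without overlap; the other probe set of Pex2 differed by 0.04. Far1, which makes the fatty alcohols of ether lipids, was higher by 0.23 without overlap, as in 4 of its 5 probe sets by sign. Of 18 genes of glycolysis and glucose uptake, 16 were lower and 4 wholly below (median -0.21, and -0.31 without knockout 8 and -0.32 without knockout 9), namely Pfkp at -0.47, Tpi1 at -0.41, Pgk1 at -0.33 and Aldoa at -0.32.

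Genes that define adipocytes were at like levels in both sets. Of 24 measured adipocyte and adipokine genes 11 were higher and 13 lower (median -0.01), and Aqp7, the glycerol channel of adipocytes, alone lay wholly above, by 0.30, while its other probe set differed by -0.07. The mean level of this list ran from 12.13 to 12.42 and from 12.04 to 12.42. Adiponectin (Adipoq) differed by 0.05. Brown and beige fat genes were lower in 17 of 23, with 3 wholly below and 2 wholly above (median -0.23). Among all genes 5.58% lay wholly below and 8.85% wholly above. Cox7a1, a muscle and brown fat subunit of cytochrome oxidase, read 7.92, 7.90, 7.85 and 7.31 against 6.59, 6.54, 6.78 and 6.99, a difference of -1.02, and Cox8b differed by -0.83. Ppara differed by -0.43 and Ebf2 by 0.30, both without overlap. In bulk tissue fewer cells of a type and less RNA per cell cannot be told apart.

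Interferon genes and most lymphocyte and neutrophil markers were higher in the last-listed set, and other immune lists were less even. Among 23 measured interferon-induced genes 22 were higher, 9 lay wholly above and none wholly below (median 0.36; 0.41 in controls and 0.34 in knockouts). Rsad2, the antiviral protein viperin, read 8.31, 8.27, 8.68 and 8.60 against 8.95, 10.48, 9.08 and 9.12, a difference of 0.94. Control 4 was more than 1 above every other array. Oasl2, an interferon-induced relative of the oligoadenylate synthetases, read 7.89, 7.98, 7.24 and 7.37 against 8.55, 8.76, 8.21 and 8.24, a difference of 0.82 that was present in each genotype, with knockouts below controls in each set. Ifit2 and Ifit3 differed by 0.62 and 0.61 without overlap. The list score was -0.08, -0.11, -0.32 and -0.33 against 0.10, 0.62, -0.02 and 0.13.

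Macrophage markers were higher in 24 of 31, with 4 wholly above, beside 8.85% of all genes. Their median was 0.30, and 0.17 without control 3. It was 0.33 in controls and 0.13 in knockouts. C1qb, a complement component made by resident macrophages, read 10.37, 10.38, 10.03 and 10.69 against 11.46, 11.06, 10.83 and 10.87, a difference of 0.69. Mrc1, the mannose receptor CD206, C1qc and Csf1r, the receptor for macrophage colony-stimulating factor, differed by 0.65, 0.59 and 0.41. The list as a whole was not uniform: its lowest member, Mmp12, was at -1.56, and its scores overlapped, from -0.28 to 0.09 and from -0.19 to 0.30, with knockouts 9 and 10 low. All 12 measured genes of antigen presentation by MHC class II were higher (median 0.30, and 0.14 without control 4; 0.34 in controls and 0.11 in knockouts), but none without overlap. H2-Aa, its leading member, read 11.37, 11.37, 12.21 and 12.64 against 11.85, 12.83, 12.31 and 12.78. Of its 4 probe sets, 2 had the other sign, down to -0.31. H2-Eb1, a class II beta chain described below, was lower in the last-listed controls and higher in the last-listed knockouts.

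Most lymphocyte markers were dim, and most were higher. Of 25 measured T and NK cell markers 23 were higher and 9 wholly above (median 0.31). Cd3d, a chain of the T cell receptor complex, read 5.57, 5.55, 5.66 and 6.05 against 6.20, 6.48, 6.14 and 6.54, a difference of 0.64. Klrk1, Cd2 and Lat differed by 0.60, 0.52 and 0.43 without overlap. Their levels lie in the range where the median difference of all genes was itself above 0, at 0.08 among the dimmest 4549 genes and 0.06 among the next 4548. Of 19 B and plasma cell markers 14 were higher and 5 lower, with differences from -1.61 to 1.35. Of the 19, 6 lay wholly above and 1 wholly below (median 0.37). Most were dim as well, with 3 of the 19 above the median level of all genes. Ms4a1, which encodes CD20, differed by 0.81, Bank1 by 0.75 and Pou2af1 by 0.72.

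Immunoglobulin genes differed in sign. The heavy chain of IgM, Ighm, read 13.20, 13.82, 13.51 and 13.16 against 11.83, 11.07, 12.38 and 11.96 on its brightest probe set, a difference of -1.61. Only 3 of its 11 probe sets had that sign, the range was -1.68 to 1.32, and the mean of its probe sets differed by 0.15. The value thus describes 1 probe set. Igkv8-30, a variable segment of the kappa light chain, read 7.27, 8.34, 7.45 and 8.55 against 8.88, 8.69, 9.18 and 10.94, a difference of 1.52 with knockout 10 highest.

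Neutrophil and monocyte markers were higher in 16 of 17, with 6 wholly above (median 0.36; 0.56 without control 3, 0.19 without control 4, and 0.15 without control 1, control 4 and knockout 9). Mmp9, a gelatinase of neutrophils, read 6.04, 5.61, 5.63 and 5.81 against 6.85, 7.48, 6.51 and 6.42, a difference of 1.04. Ccr2, the receptor that brings monocytes into tissue, read 7.77, 8.28, 8.35 and 8.70 against 9.47, 8.88, 8.77 and 9.37, a difference of 0.85. The granule genes Mpo and Elane differed by 0.55 and 0.40 without overlap. On control 4 the list scored 1.13, against -0.14 to 0.03 on the other last-listed arrays. Of the 17 markers 3 had a mean above the median of all genes, and below it the differences of all genes were themselves shifted upward. Of 15 mast cell and eosinophil markers Ccr3 alone lay wholly above, at a dim 0.17. Of 24 inflammatory and acute phase genes 14 were higher and 10 lower (median 0.06), and Saa1, an acute phase apolipoprotein, was wholly below at -0.64.

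Most matrix genes were higher on the last-listed arrays. Of 28 measured genes of extracellular matrix and remodelling 22 were higher, 10 wholly above and none wholly below (median 0.25). Thbs1, the matrix glycoprotein thrombospondin 1, read 6.72, 7.38, 8.28 and 7.93 against 10.35, 9.04, 8.71 and 10.82, a difference of 2.15 (4.44-fold higher; 7.58 ± 0.68 and 9.73 ± 1.02, SD, n = 4 each). Its close relative Thbs2 read 8.62, 8.03, 8.71 and 9.78 against 11.05, 10.19, 10.47 and 10.80, a difference of 1.84. Every probe set of both genes had the same sign, from 1.87 to 2.15 and from 1.42 to 1.84. Fbln1 (fibulin 1) and Eln (elastin) differed by 0.70 and 0.69.

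Fibroblast and preadipocyte markers were higher in 19 of 23 (median 0.29, and 0.18 without control 1). For comparison, 8.85% of all genes lay wholly above. Here 2 of 23 did, a share near that background, with Pdgfra at 0.57 and Cd34 at 0.53, and Col6a3 lay wholly below at -0.41. Of 24 endothelial markers 17 were higher, and Tek, the angiopoietin receptor, and Egfl7 lay wholly above at 0.50 and 0.29, again a share near the background. The endothelial median was 0.44 in controls and -0.02 in knockouts, with 0.12 without control 1, 0.10 without control 3 and 0.10 without control 1, control 4 and knockout 9. Smooth muscle and pericyte markers were higher in 15 of 19 (median 0.26; 0.48 in controls, 0.04 in knockouts, 0.13 without control 4 and 0.08 without those 3 arrays), with Abcc9, Notch3, Pdgfrb and Rgs5 between 0.49 and 0.58. Mesothelial markers had a median of 0.52, with Efemp1 at 0.81, Wt1 at 0.59 and Igfbp5 at 0.32 just apart. For Wt1 knockouts 8 and 10 both read 7.58. The mesothelial score of knockout 6 was -0.84, the lowest of any array, and the other first-listed arrays lay between -0.11 and 0.04. Nerve markers were higher in 9 of 12 and lower in 3, down to -0.81 (median 0.14). Dbh and Th, enzymes of noradrenaline synthesis, and Nefl lay wholly above by 0.36, 0.28 and 0.20. Among all genes 8.85% lay wholly above. Of the 12 nerve markers 4 had a mean above the median of all genes. Below that median the differences of all genes were themselves shifted upward. The nerve scores overlapped, and control 1 of the first-listed set was the highest array, at 0.29.

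The genes with the largest differences belonged in part to other tissues. On the lower side stood liver products, of which 17 of 18 measured were lower and 5 wholly below (median -2.09). Alb, serum albumin, read 13.64, 10.95, 11.97 and 10.25 on the first-listed arrays and 9.20, 7.87, 8.06 and 8.89 on the last-listed arrays, a difference of -3.20 (9.17-fold lower; 11.70 ± 1.48 and 8.50 ± 0.64, SD, n = 4 each). Fabp1, the fatty acid binding protein of liver and gut and no member of the list, read 10.62, 7.46, 8.42 and 6.46 against 6.21, 3.69, 4.19 and 5.21, a difference of -3.41 (10.7-fold lower). Control 1 was highest for both. Apoa1, Hpx and Fga, a fibrinogen chain, all secreted by the liver, differed by -2.36, -2.22 and -2.68, and Pzp, a plasma protease inhibitor outside the list, by -2.24.

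The liver score was 2.71, 0.31, 0.83 and -0.30 on the first-listed arrays and -0.24, -1.34, -1.35 and -0.62 on the last-listed arrays, so the scores overlapped even though 5 members did not. The mean level of the list ran from 7.50 to 10.50 and from 6.45 to 7.56. Without control 1, control 4 and knockout 9 its median was -0.81. The median over the arrays left out one at a time ran from -2.54 to -1.39. Liver also makes fat and cholesterol, and the part of this signal in the differences of the lipid synthesis genes above was not tested. Lipogenic scores in the same order of arrays were 0.56, 0.43, 0.12 and 0.08, then 0.06, -0.60, -0.11 and -0.55.

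On the higher side stood genes of red blood cells. Hbb-b2, an adult beta globin, read 4.84, 5.38, 6.17 and 6.79 against 7.31, 9.60, 8.68 and 7.20, a difference of 2.40, while its other probe set differed by -0.16. Alas2, the first enzyme of haem synthesis in erythroid cells, read 7.15, 6.99, 7.65 and 8.43 against 9.40, 10.87, 9.91 and 8.63, a difference of 2.14. Slc25a37, the iron carrier mitoferrin, differed by 1.05, and Slc4a1, the band 3 anion exchanger, by 0.96. Control 4 was highest for all 4 genes. Of the 5 red blood cell markers measured 3 lay wholly above (median 0.35), and 1 of the 5 had a mean above the median of all genes. The part of blood in the immune differences was not tested.

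**Figure D5:**
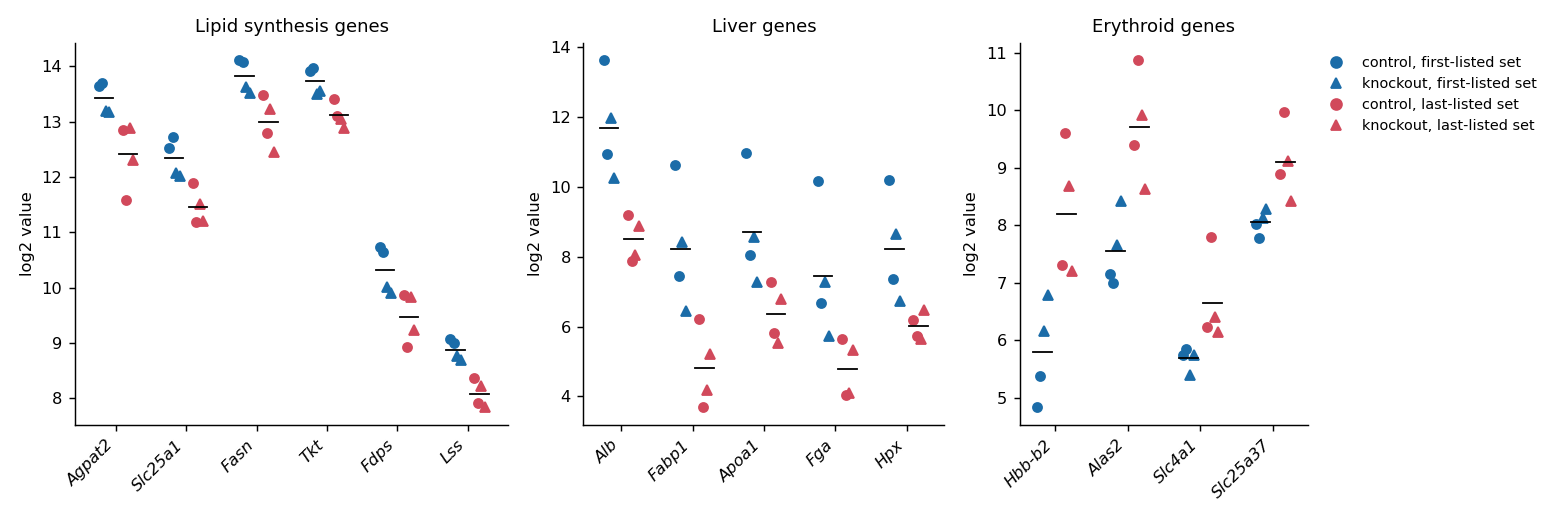
Log2 values of lipid synthesis, liver and erythroid genes on each array, with the first-listed set left and the last-listed set right of each gene, the mean of 4 arrays as a bar, circles for controls and triangles for knockouts; axes do not start at 0. Liver genes are highest on control 1 and erythroid genes on control 4, and lipid synthesis genes are highest on controls 1 and 2.

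The gene with the largest difference upward was Cd99, a small adhesion glycoprotein of leukocytes and endothelium. It read 6.57, 5.40, 8.99 and 8.75 on the first-listed arrays and 10.83, 10.32, 10.53 and 10.90 on the last-listed arrays, a difference of 3.22 (9.30-fold higher; 7.43 ± 1.74 and 10.65 ± 0.27, SD, n = 4 each). Its 3 probe sets ran from 2.40 to 3.22. Within the first-listed set the controls were lower than the knockouts, and the last-listed arrays were alike. Vnn1, a pantetheinase, differed by 1.53, Prex2, an exchange factor for Rac, by 1.43, Efhd2 by 1.12, Sbsn by 1.05 and Chrdl1, an antagonist of bone morphogenetic proteins, by 1.02. The second probe set of Prex2 differed by -0.24, and 3 of the 4 probe sets of Chrdl1 were higher.

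On the lower side, beside liver and immunoglobulin genes, stood genes of mixed kinds. Xdh, which makes uric acid, was the most even: it read 11.23, 11.19, 11.41 and 11.26 against 10.34, 10.16, 10.16 and 9.86, a difference of -1.14 (11.27 ± 0.10 and 10.13 ± 0.20, SD, n = 4 each). Ehd2, an ATPase of caveolae, which are dense in fat cells, read 11.88, 12.46, 12.16 and 12.10 against 11.14, 10.23, 10.45 and 11.38, a difference of -1.35 shared in sign by 4 of its 5 probe sets. Hspb6, a small heat shock protein of muscle, read 10.76, 10.55, 10.04 and 10.28 against 8.51, 8.73, 8.98 and 9.62. Syt12, a synaptotagmin, differed by -1.48, Slc5a7, a choline transporter, by -1.13 and Clec3b, the plasminogen-binding protein tetranectin, by -1.07.

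Stress genes differed little. Of 23 measured genes of the unfolded protein and integrated stress responses 5 lay wholly above and 1 wholly below (median 0.04), with the chaperones Hsp90b1, Sdf2l1 and Calr of the endoplasmic reticulum at 0.28, 0.26 and 0.25 and the factor Xbp1 at 0.27. Of 17 heat shock genes 12 were lower and 3 wholly below (median -0.14; -0.22 without control 3 and -0.07 without control 4), led by Fkbp4 at -0.27, which turned to 0.06 as the mean of its probe sets. Immediate early genes had a median of 0.02, with Klf4 wholly above at 0.45. Proliferation genes were lower in 24 of 27 (median -0.22; -0.12 without control 2 and -0.43 without control 1, control 4 and knockout 9), with Mcm5, Mcm6 and Rrm1 of DNA replication wholly below at -0.49, -0.24 and -0.19. Ribosomal proteins and splicing factors had medians of 0.02 and 0.06. Of the 41 list medians, 4 turned sign with the mean of the probe sets of a gene, 5 with the RNA quality covariate, 4 in controls alone, 8 in knockouts alone and 1 to 5 with 1 array left out. None turned under quantile normalisation or with array medians subtracted, a step that shifts all genes of an array alike.

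Whether the genotype difference depended on the set was a question the choice of sets did not use, and it was tested. No gene passed: 0 of 18193 (0%) had a limma adjusted p under 0.05 for the difference between the sets in knockout minus control, with 589 genes at an unadjusted p under 0.05. An ordinary linear model per gene also gave 0, with 786. The fit leaves 4 residual degrees of freedom, and the small number of arrays limits its precision. The nearest was H2-Eb1, a beta chain of MHC class II (limma adjusted p = 0.0890). It read 10.35 and 10.29 on controls 1 and 2 and 8.20 and 8.85 on knockouts 6 and 8, but 8.18 and 8.43 on controls 3 and 4 and 11.27 and 11.62 on knockouts 9 and 10. The arrays fell at a high and a low level, 4 at each, crossed between genotype and set, and the interaction was 4.94 (SE 0.33). It passed with array medians subtracted (limma adjusted p = 0.0448) and with dim genes left out (limma adjusted p = 0.0415). The next by unadjusted p were ranked among genes with a mean above the median of all genes. On the positive side they were Plbd1 at 0.63 and Nmnat3 at 0.80. Meg3 at -1.08, Tagln at -1.02 and Cryab at -3.01 were on the negative side. Each had a limma adjusted p of 1. Without control 2 the test called 32 genes, and without knockout 6 it called 10.

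Knockout was also compared with control with the set as a term. Again 0 of 18193 genes (0%) passed, the smallest limma adjusted p was 0.821, and 703 genes had an unadjusted p under 0.05 (758 by an ordinary linear model, which called 0). Genes with a mean above the median of all genes were ranked by unadjusted p. Mturn at 0.71, Cfb (complement factor B) at 0.51 and Prtn3 (proteinase 3) at 0.55 had the smallest on the higher side. Each had a limma adjusted p of 0.932. Oasl2 at -0.53 (limma adjusted p = 0.903) was on the lower side, with the vitamin transporter Slc5a6 at -0.67 and the metalloprotease Adamts12 at -0.62 (limma adjusted p = 0.932 each). With control 1, control 4 and knockout 9 left out, 5 arrays and 2 residual degrees of freedom remained, and 662 genes passed, 609 higher and 53 lower in knockout. Leaving out any 1 array gave 0. Pex5, the deleted gene, read 9.52, 9.58, 9.50 and 9.27 on the first-listed arrays and 9.34, 9.06, 9.38 and 9.30 on the last-listed arrays. Its level did not separate the sets (difference -0.20) or the genotypes (-0.01 with the set in the fit), and where its probes lie relative to the deleted exons is not stated in the sources used here.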

How the data were processed

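Per the labels' protocols, Trizol RNA was copied into biotin-labelled cRNA and hybridised, 1 array per sample. The authors deposited log2 values made with RMA, per the submitters' processing notes, whose version is not stated in the sources used here. RMA normalises between arrays and compresses dim values. The table holds 45101 probe sets; 64 Affymetrix controls were kept as quality measures, and of the other 45037, 34945 have 1 gene symbol in an annotation of 2016 and 932 several. Of those with 1 symbol 34741 matched RefSeq (GRCm38.p6) by Entrez number. Genes with several probe sets (9010) took that with the highest mean; in 4216 they disagreed on the sign of the set difference. No gene was filtered out. Of 956 members of 41 lists 853 were measured; the others were not analysed here.

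Members, sets and lists were chosen with earlier results of these data known. The set difference was estimated by least squares with genotype in the fit, with no test. Genes were counted where the sets did not overlap. Tests of genotype by set and of genotype with the set in the fit used limma 3.58.1 in R 4.3.3 (lmFit, eBayes) with p-values adjusted over all genes (Benjamini-Hochberg) and called under 0.05; both steps were tested on simulated data. Separate animals are not stated, and p-values then reflect only the spread among these samples. Named genes were the 12 largest non-overlapping differences per direction with a higher set mean above the median of all genes (7.58). Up to 4 non-overlapping members per list, or otherwise the 2 largest, were also named. So were Pex5 and, among genes with a mean above that median, the 3 smallest p per direction of each test. Clone numbers were passed over. Other genes are named as chosen after seeing values. Alternatives covered the genotype term, fold minimum, normalisation, probe sets, dim genes, an RNA quality covariate, variance model, array weights and leaving out arrays.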

Additional observations from a re-analysis of the deposited data

Results flagged for a closer look

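List scores and array measures were checked for an array far from the other 3 of its set in 156 groups of 4 arrays. In 6 groups the gap to the nearest other array, divided by the range of the group, was above Dixon's critical value; chance gives about 1 in 20, or 7.8 groups. The score of hypoxia-induced genes was low on control 2 in the first-listed set, at -0.17 against 0.03 to 0.04 (ratio 0.938). The score of neutrophil and monocyte markers was high on control 4 in the last-listed set, at 1.13 against -0.14 to 0.03 (ratio 0.870). Nerve markers were low on control 4, at -0.24 against 0.12 to 0.16 (ratio 0.903), and skeletal muscle markers were lowest there by a small amount, at -0.02 against 0.03 to 0.04 (ratio 0.924). Red blood cell markers were high on knockout 8 among the first-listed arrays, at -0.11 against -0.42 to -0.39 (ratio 0.904). Matrix and remodelling genes were high on control 3 among the last-listed arrays, at 0.34 against 0.08 to 0.11 (ratio 0.914).

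In 2 of 41 lists both knockouts lay on one side of both controls in the first-listed set and on the other side in the last-listed set. Heat shock genes scored 0.17 higher in knockout in the first-listed set and -0.11 in the last-listed set, a difference of -0.28. B and plasma cell markers scored -0.13 and 0.20, a difference of 0.33. These differences were not tested.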

How the results depend on the processing

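Counts of genes at least 2-fold apart depended on where the fold was set and on single arrays. Higher genes numbered 118 at 1.5-fold, 6 at 3-fold, 55 over every probe set, 10 with dim genes left out, 19 to 53 with 1 array left out, and 44 without controls 1 and 4 and knockout 9, which was added with the data in view. Lower genes numbered 106, 11, 65 and 9 in the same order and 21 to 83 with 1 array left out. Fewer arrays make it easier for sets not to overlap. Genes past the threshold for genotype by set numbered 1 with array medians subtracted, 1 over every probe set, 1 with dim genes left out and 0 to 32 with 1 array left out; with 1 array out, the lone array of its group is assumed to vary like the others. For knockout minus control with the set in the fit the count was 662 without controls 1 and 4 and knockout 9. The causes were not tested. As the mean of its probe sets the difference of Ighm turned to 0.15, of Fkbp4 to 0.06 and of Nr4a2 to -0.03. Of the other comparisons 587 list medians and 2147 gene differences moved by less than the spread between arrays, and 28 and 115 by more. The median of the epididymis list, -0.42, was 0.09 in controls alone and 0.11 in knockouts alone. No paired analysis was possible because controls and knockouts share no replicate numbers. The table holds no detection calls, so signal over background is not known.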

Other observations

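Genes of the male reproductive tract appeared on single arrays of both sets. The genes in this paragraph were chosen after their values were seen. Spink8, a protease inhibitor of the epididymis, read 12.54 on control 1, 7.69 on knockout 10 and 5.03 to 6.22 on the other 6 arrays. Adam7, a membrane protein of the epididymis, read 10.14 on control 1, 9.23 on knockout 8 and 4.53 to 6.13 elsewhere, and Gpx5, the glutathione peroxidase of the epididymis, read 9.67 on knockout 8 and 6.08 to 6.52 elsewhere. Svs4, a seminal vesicle secretory protein, read 7.89 on control 3, 7.01 on knockout 10 and 3.39 to 3.68 elsewhere. The list of epididymis, vas deferens and seminal vesicle genes therefore differed from array to array more than from set to set, with scores of 0.43, -0.48, -0.63 and 1.32 on the first-listed arrays and 0.24, -0.59, -0.46 and 0.16 on the last-listed arrays. Foxj1, a regulator of motile cilia, read 4.91 on control 3 and 7.25 to 9.24 on the other 7 arrays, and Greb1, a hormone-responsive gene, read 4.92 on control 3 and 7.92 to 10.12 elsewhere.

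Macrophage genes did not differ in 1 direction. Mmp12, a macrophage elastase, read 9.77, 9.82, 9.16 and 9.92 on the first-listed arrays and 9.08, 9.77, 7.25 and 6.33 on the last-listed arrays. Itgax, which encodes CD11c, read 8.54, 8.58, 8.99 and 8.69 against 8.10, 8.76, 7.74 and 7.50, and Gpnmb, a glycoprotein of lipid-laden macrophages, read 9.76, 9.74, 9.04 and 9.65 against 7.96, 9.27, 8.20 and 7.50. All 3 were lowest on knockout 10 and near the first-listed level on control 4, while the complement and mannose receptor genes of resident macrophages were higher on all last-listed arrays.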
